A study of Homo sapiens with 4 samples.

Results

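FHL1 and 9 related LIM-domain genes were followed in an RNA immunoprecipitation sequencing (RIP-seq) study of the RNA-binding protein QKI7, an isoform of QKI. The 10 genes are the gene rows named FHL1, FHL2, FHL3, PDLIM1, PDLIM2, PDLIM5, PDLIM7, LIMS1, CSRP1 and CSRP2, out of 26830 gene rows in the table. FHL1 was chosen by its very high ratio of Flag-RIP to input in these libraries, so its values in this comparison are a description without a test. The other 9 were taken as relatives by their symbols and not for their values, although results of these data were known when they were chosen.

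U2OS is a human osteosarcoma cell line. All 4 libraries came from U2OS cells infected with a lentivirus that carries Flag-tagged QKI7, of which the GFP-positive cells were kept, so every value is from cells in which QKI7 expression was forced. Protein and RNA were cross-linked by ultraviolet light in the cells before lysis and sonication. The 2 input libraries hold RNA of the lysate and the 2 Flag-RIP libraries hold RNA recovered from it with a Flag antibody. The labels number the replicates in each group and do not say whether they were separate cultures. The p-values therefore reflect the spread between these samples alone, and that spread may be technical. Neither a mock precipitation nor cells lacking the tagged protein were analysed here.

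LIM domains are pairs of zinc fingers that bind other proteins, and many LIM proteins sit at focal adhesions and along actin filaments. The FHL proteins consist almost wholly of LIM domains and are best known from striated muscle, where FHL1 variants cause inherited myopathies. The PDLIM proteins add a PDZ domain that binds alpha-actinin, LIMS1 (PINCH1) links integrin-linked kinase to adhesions, and the CSRP proteins bundle actin in smooth muscle and other cells. QKI proteins bind RNAs that carry the sequence ACUAAC, or ACUAAU, and control splicing, stability and translation.

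Values are TPM, a share of each library corrected for transcript length. They hold no read depth, so no counting interval is given. Most genes took a larger share of the Flag-RIP libraries: the median ratio of mean Flag-RIP TPM to mean input TPM was 3.32 over the 10415 tested genes, which had a mean of 1 TPM or more. A ratio near this value is that of a typical gene. Changes called centred below are differences of log2(TPM + 1) once the libraries had been brought to a common median, and this scale understates the change of low genes. ERCC spike-in rows took 2.78% and 3.89% of the inputs and 18.9% and 25.6% of the Flag-RIP libraries. The labels do not say when the spike-ins were added, so whether scaling to them is meaningful is uncertain. QKI, the gene of the tagged protein, had a TPM of 3.83 and 5.85 in the inputs and of 60.7 and 42.0 in Flag-RIP. There, transgene and endogenous reads cannot be told apart.

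Of 9 osteoblast and mesenchymal markers, 4 had at least 1 TPM in both inputs, with COL1A1 at 53.8 and 83.7 TPM and VIM at 140.5 and 182 TPM. SP7, ALPL and COL1A2 stayed under 1 TPM in every library. Of 10 skeletal and cardiac muscle markers, 7 stayed under 1 TPM in every library, among them MYOD1, MYOG, DES and ACTA1. The muscle markers summed to 30.3 and 40.7 TPM in the inputs and to 73.9 and 84.4 TPM in Flag-RIP, most of it TNNT1. The 4 blood markers summed to at most 0.28 TPM in any library. Of the 4 epithelial markers KRT8 and KRT18 were present and EPCAM and CDH1 stayed under 1 TPM throughout.

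FHL1 had a TPM of 6.0 in input replicate 1 and 8.78 in input replicate 2, and of 1041 in Flag-RIP replicate 1 and 543.9 in Flag-RIP replicate 2. Both Flag-RIP values lay far above both inputs, and the Flag-RIP replicates differed from each other 1.91-fold. The means were 7.39 ± 1.97 TPM in input and 792 ± 351 TPM in Flag-RIP (SD, n = 2), a ratio of 107. The ratio was 173 between the libraries numbered 1 and 61.9 between those numbered 2. The lower Flag-RIP value was 61.9 times the higher input value. In a bulk value per gene, recovery from more cells and recovery of more RNA per cell cannot be told apart.

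FHL1 stood above most protein-coding genes in the inputs and was one of the most abundant protein-coding rows in Flag-RIP. Among 18786 protein-coding genes it ranked 1130 and 1124 by TPM in the inputs. It ranked 3 in Flag-RIP replicate 1 and 12 in replicate 2. Protein-coding rows held 49744 and 62418 of 1000000 TPM in the inputs, and 133880 and 123140 in Flag-RIP. Of this protein-coding TPM, FHL1 took 0.0121% and 0.0141% in the inputs and 0.777% and 0.442% in Flag-RIP. By ratio of means it ranked 9 among the tested genes, leaving out 44 genes whose inputs are listed at 0, and 1 among 9474 tested protein-coding genes. These ranks restate the value FHL1 was chosen for.

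**Figure D1:**
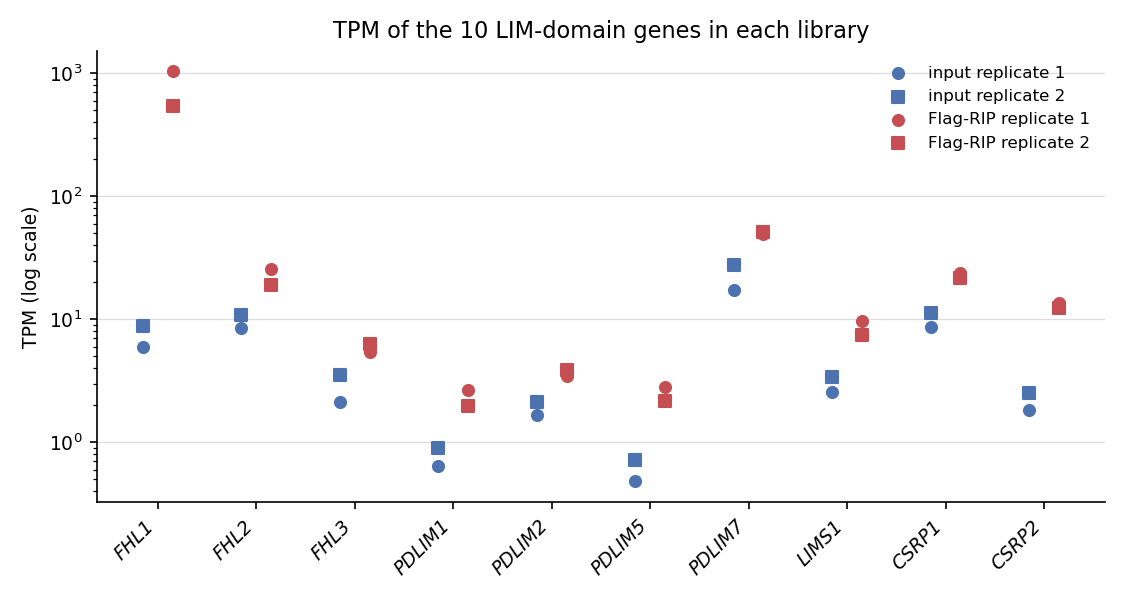
TPM on a log scale of the 10 genes in each of the 4 libraries, with circles for replicate 1 and squares for replicate 2, blue for input and red for Flag-RIP. FHL1 goes from 6.0 and 8.78 TPM in the inputs to 1041 and 543.9 TPM in Flag-RIP, while the highest value of any other gene is 51.2 TPM.

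FHL2 and FHL3, the expressed paralogs of FHL1, had ratios below that of a typical gene. FHL2, a coactivator and adhesion protein expressed in heart and many cultured cells, had 8.54 and 10.7 TPM in the inputs and 25.7 and 18.9 TPM in Flag-RIP. FHL3, which binds actin and is known from skeletal muscle, had 2.12 and 3.52 TPM in the inputs and 5.40 and 6.24 TPM in Flag-RIP. For both genes the Flag-RIP values lay above the inputs in TPM, as they did for 96.7% of all tested genes. Their ratios of 2.31 for FHL2 and 2.06 for FHL3 were below the median ratio of 3.32.

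FHL2 was the most abundant of the 3 paralogs in both inputs and FHL1 in both Flag-RIP libraries. FHL1 made up 36.0% and 38.1% of the summed TPM of FHL1, FHL2 and FHL3 in the inputs, and 97.1% and 95.6% in Flag-RIP. Its level per length was 0.703 and 0.818 times that of FHL2 in the inputs, and 40.6 and 28.8 times that of FHL2 in Flag-RIP. These shares follow from the ratio for which FHL1 was chosen and are given without a test.

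**Figure D2:**
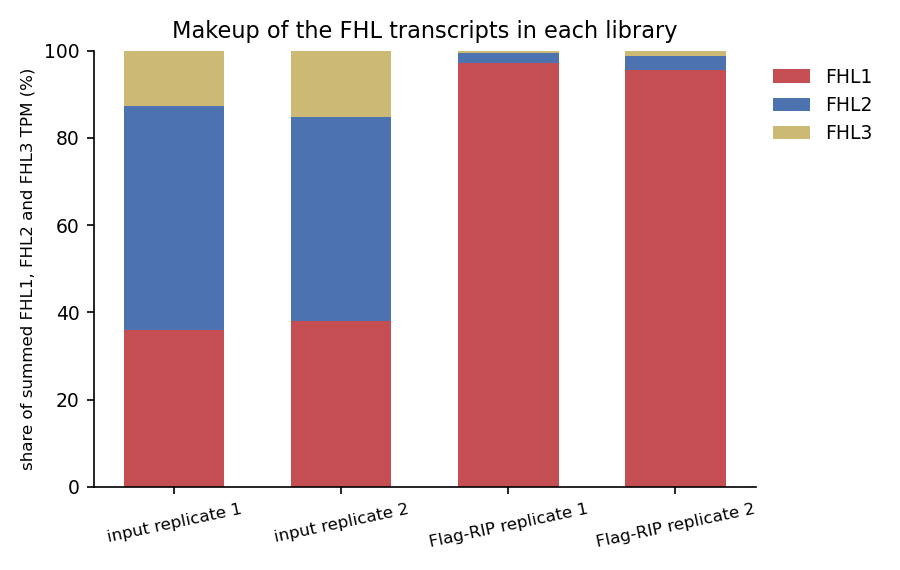
Stacked bars of the share of FHL1, FHL2 and FHL3 in their summed TPM (%), 1 bar per library. FHL1 takes 36.0% and 38.1% in the inputs and 97.1% and 95.6% in Flag-RIP, and FHL2 takes 51.3% and 46.6% in the inputs and 2.39% and 3.32% in Flag-RIP.

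After centring, FHL3 was lower in Flag-RIP and FHL2 was not called. FHL3 changed by -0.46 (SE 0.12, limma adjusted p = 0.0207). That call was lost without input replicate 1 (limma adjusted p = 0.124) and without input replicate 2 (limma adjusted p = 0.173). For FHL2 the change was -0.20 (SE 0.16, limma adjusted p = 0.347), and its centred Flag-RIP values overlapped the inputs. Over all tested genes, 16.4% were called higher and 24.4% lower on this scale. Of the tested genes, 3386 had a mean input under 1 TPM and passed the filter only through Flag-RIP. FHL1 had a centred change of 5.19.

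The PDZ-LIM genes had ratios between 1.93 and 4.12. PDLIM7 (Enigma), a scaffold of actin filaments that is also known in bone formation, was the most abundant of the 10 genes in the inputs, at 17.4 and 27.5 TPM, and had 49.8 and 51.2 TPM in Flag-RIP. Its centred change was -0.15 (SE 0.17, limma adjusted p = 0.503). PDLIM2, which is also known for the turnover of nuclear transcription factors, had 1.67 and 2.14 TPM in the inputs and 3.47 and 3.87 TPM in Flag-RIP. Its ratio of 1.93 was the lowest of the 10. PDLIM2 was lower after centring, by -0.63 (SE 0.12, limma adjusted p = 0.00536), a call that was lost without input replicate 1 (limma adjusted p = 0.11).

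PDLIM1 and PDLIM5, which link alpha-actinin to partners at stress fibres and at the muscle Z-disc, were the rarest of the 10 genes. PDLIM1 had 0.64 and 0.90 TPM in the inputs and 2.67 and 1.98 TPM in Flag-RIP. PDLIM5 had 0.48 and 0.72 TPM in the inputs and 2.79 and 2.16 TPM in Flag-RIP. Both passed the filter on low values only through their Flag-RIP libraries. Their centred changes were -0.41 for PDLIM1 (SE 0.15, limma adjusted p = 0.0568) and -0.20 for PDLIM5 (SE 0.15, limma adjusted p = 0.303). For PDLIM5 the plain ratio of 4.12 was above the median ratio while the centred change was below 0, and with a pseudocount of 0.1 its change was 0.17 (limma adjusted p = 0.427). Its call turned both ways, lower with a pseudocount of 5 (-0.25, limma adjusted p = 0.0153) and higher with no filter (0.58, limma adjusted p = 0.00508). Without the filter the common median changed, which moved every gene of the main fit up by the same amount. With robust variance fitting PDLIM1 passed the threshold (limma adjusted p = 0.0395).

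LIMS1, the PINCH adaptor of integrin-linked kinase, had 2.57 and 3.38 TPM in the inputs and 9.61 and 7.45 TPM in Flag-RIP. Its ratio was 2.87 and its centred change -0.06 (SE 0.12, limma adjusted p = 0.729), the smallest of the 10. The near-identical genes LIMS3 and LIMS4 had the same values as each other, 0.22 and 0.36 TPM in the inputs and 0.47 and 1.06 TPM in Flag-RIP. How reads were divided among LIMS1 and these copies is uncertain.

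The CSRP genes differed in their calls. CSRP2, expressed in vascular smooth muscle and in stellate cells, had 1.84 and 2.53 TPM in the inputs and 13.6 and 12.3 TPM in Flag-RIP. The lower Flag-RIP value was 4.87 times the higher input value, and the ratio of means was 5.92. After centring CSRP2 was higher in Flag-RIP by 0.82 (SE 0.11, limma adjusted p = 0.00194), and it was the only one of the 9 relatives called higher. The call was kept with each of the 4 libraries left out in turn, with a largest limma adjusted p of 0.041. When the libraries were scaled to the spike-ins, CSRP2 had -0.13 and did not pass (limma adjusted p = 0.683).

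CSRP1, which bundles actin and is widespread in smooth muscle, was more abundant in the inputs, at 8.63 and 11.2 TPM, and had 23.8 and 21.5 TPM in Flag-RIP. Its ratio was 2.28 and its centred change -0.20 (SE 0.13, limma adjusted p = 0.266). In Flag-RIP the level of CSRP2 remained below that of CSRP1. The difference between the changes of CSRP1 and CSRP2 was not tested.

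**Figure D3:**
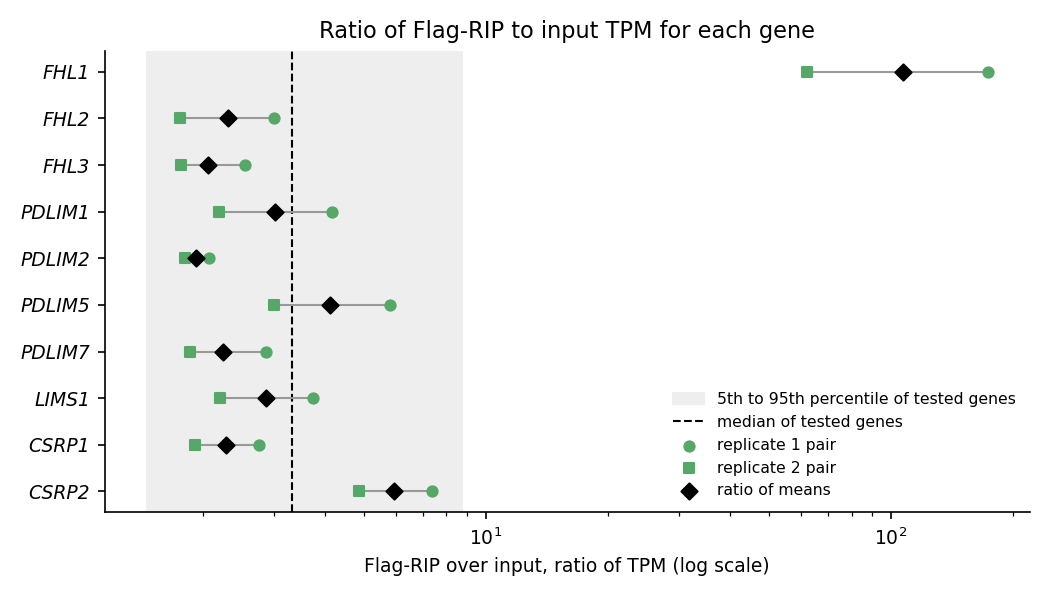
Ratio of Flag-RIP to input TPM on a log scale for the 10 genes, with diamonds for the ratio of group means, and circles and squares for the libraries numbered 1 and 2. The dashed line marks the median ratio of 3.32 and the grey band runs from the 5th to the 95th percentile of tested genes, 1.46 to 8.74; FHL1 at 107 lies beyond the band and the other genes lie within it.

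Over the 9 relatives of FHL1, 1 was higher, 2 were lower and 6 did not pass the threshold after centring, or 11.1% higher and 22.2% lower. All 9 were tested. These shares stand beside 16.4% and 24.4% over all tested genes. The median centred change of the 9 was -0.20, against -0.11 over all tested genes. In plain ratios, 7 of the 9 lay below the median gene and 2, PDLIM5 and CSRP2, above it. In centred values, both Flag-RIP libraries lay above both inputs for 1 of the 9, CSRP2, and below both inputs for 5, against 29.4% and 47.3% of tested genes. In TPM both lay above the inputs for all 9, as for 96.7% of tested genes, and the opposite order was seen in 0.845%. The ratios of the 9 ran from 1.93 to 5.92, a range that lies within the 5th to 95th percentile of tested genes.

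The direction for the relatives depended on how the libraries were scaled. In the deposited values all 9 were higher in Flag-RIP with a limma adjusted p of at most 0.0178, as were 92.3% of tested genes. None of the 9 was called lower there, against 0.317% of tested genes. Scaled to the spike-ins all 9 had changes below 0, where the median over all tested genes was -0.68. FHL1, chosen for its high ratio, was above 0 on each scale, at 6.51 in the deposited values and 3.88 scaled to the spike-ins.

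The Flag-RIP replicates stood further apart for FHL1 than for its relatives. The higher Flag-RIP value was 1.91 times the lower for FHL1, and 1.03 to 1.36 times for the other 9. This was not particular to FHL1. Over the 5 genes nearest to it in profile, described below, the same ratio ran from 1.02 for LOC100507412 to 2.72 for SCARNA2. ABLIM1, another LIM-domain gene, had 1.73. How FHL1 compares in this with all tested genes was not examined. The 9 relatives summed to 43.9 and 62.6 TPM in the inputs, against 136.7 and 125.6 TPM in Flag-RIP. Together the 10 genes summed to 49.9 and 71.4 TPM in the inputs, of which FHL1 was 12.03% and 12.3%, and to 1178 and 669 TPM in Flag-RIP, of which FHL1 was 88.4% and 81.2%.

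The 5 genes with the profile most like that of FHL1 were 4 noncoding RNAs and ERH. Likeness was measured as the Euclidean distance between centred log2 values over the 4 libraries, after each gene's own mean had been subtracted. It uses the same 4 values by which FHL1 was chosen, so the nearest genes are by construction others with very high ratios of Flag-RIP to input. MIAT, a long noncoding RNA with ACUAAC repeats, was nearest at a distance of 0.34. It was followed by LOC100507412 at 0.85, the Cajal body RNA SCARNA2 at 0.98, ERH at 1.00 and the Cajal body RNA SCARNA7 at 1.34. ERH, a small nuclear protein that takes part in RNA processing, was the only protein-coding gene among these 5. MIAT and LOC100507412 passed the filter on low values only through their Flag-RIP libraries.

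The likeness does not extend to the input levels of all the nearest genes. MIAT had 0.41 and 1.11 TPM in the inputs and 208 and 145 TPM in Flag-RIP. ERH had 5.81 and 7.24 TPM in the inputs, close to FHL1, and 560.3 and 222 TPM in Flag-RIP. In MIAT, ERH, SCARNA2 and SCARNA7, as in FHL1, Flag-RIP replicate 1 was the higher, whereas LOC100507412 had 207.5 and 212 TPM.

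**Figure D4:**
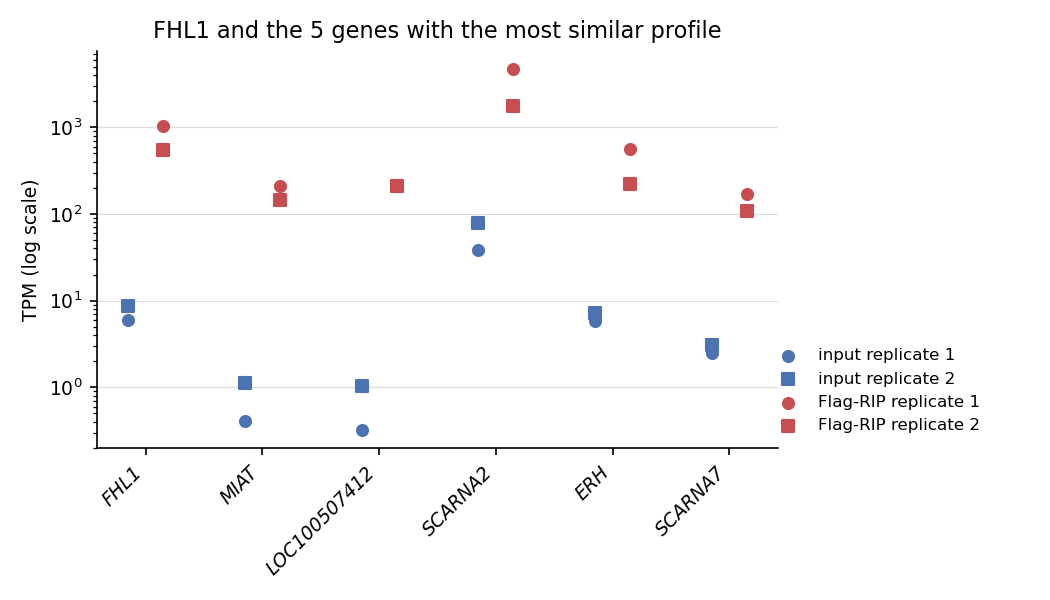
TPM on a log scale of FHL1 and the 5 genes nearest to it in profile, with circles for replicate 1 and squares for replicate 2, blue for input and red for Flag-RIP. Every Flag-RIP point lies above every input point of the same gene, and FHL1 and ERH start from like input levels of 5.81 to 8.78 TPM.

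Of 39 other LIM-domain genes of the cytoskeleton, 28 passed the filter on low values, 3 of them (LPP, ABLIM3 and LMO7, none called) only through their Flag-RIP libraries. After centring 5 were higher (17.9% of those tested), 5 were lower (17.9%) and 18 did not pass the threshold, beside 16.4% higher and 24.4% lower over all tested genes. The share called higher was near that of all genes. The median of the 28 was 0.10, against -0.11 over all tested genes. ABLIM1, which binds actin, rose by 1.00 (4.34 and 6.68 TPM in the inputs, 40.7 and 23.6 TPM in Flag-RIP). MICAL3, of a family that oxidises actin, rose by 0.91 and paxillin, PXN, an adaptor of focal adhesions, by 0.74. The limma adjusted p-values of these genes were 0.0103, 0.00245 and 0.00922. MICAL1 and LIMD1, named to complete the 5, rose by 0.61 and 0.50.

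TGFB1I1 (Hic-5), the close relative of paxillin, fell by 0.93 after centring (limma adjusted p = 0.00306) and had 2.74 and 3.51 TPM in the inputs and 3.78 and 5.01 TPM in Flag-RIP. PDLIM4, a further PDZ-LIM gene, fell by 0.54 (limma adjusted p = 0.0154) and CRIP2, a short LIM-only protein, by 0.53 (limma adjusted p = 0.0257). TRIP6 and LIMA1 were the other two called lower and are named to complete the count. The abundant members LASP1 and ZYX, the gene of zyxin, had 0.45 (limma adjusted p = 0.0972) and -0.36 (limma adjusted p = 0.1). Without input replicate 1 none of the 28 was called in either direction, at limma adjusted p-values of 0.102 for ABLIM1, 0.0507 for MICAL3, 0.0995 for PXN, 0.0628 for TGFB1I1, 0.125 for PDLIM4 and 0.135 for CRIP2. Leaving out input replicate 2 also lost the calls of ABLIM1 (change 1.07), LIMD1 (0.58), PDLIM4 (-0.58), CRIP2 (-0.47), TRIP6 (-0.47) and LIMA1 (-0.40). That fit leaves 1 input library, so only changes are given for it. TRIP6 was also lost without Flag-RIP replicate 1 (-0.34) and with quantile normalization (-0.53, limma adjusted p = 0.0596).

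FHL5, the germ cell member of the FHL family, is listed at 0 in all 4 libraries. Of 15 LIM homeobox and LMO genes in the table, which encode nuclear LIM proteins, 2 were tested, LMO4 and ISL2, both of which passed the filter on low values only through their Flag-RIP libraries. Neither was called, at centred changes of -0.17 for LMO4 and -0.25 for ISL2. Their plain ratios, 5.06 and 4.72, were above the median ratio of 3.32, so the direction against a typical gene depended on the scale. The remaining 13 did not exceed 1.62 TPM in any library.

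Among 28 adhesion partners, 23 were tested, of which 2 were higher (8.70%), 6 were lower (26.1%) and 15 did not pass the threshold, beside 16.4% higher and 24.4% lower over all tested genes. The 2 called higher were RSU1 and ENAH, so the share called higher includes a call that is no support. RSU1 alone of the 23 had a mean input under 1 TPM, against 3386 of the 10415 tested genes. The share called lower was near that of all genes, and the median centred change was -0.23, against -0.11. RSU1, which binds the PINCH protein encoded by LIMS1, had 0.75 and 1.02 TPM in the inputs and 11.7 and 7.43 TPM in Flag-RIP, a ratio of 10.8. RSU1 passed the filter on low values only through its Flag-RIP libraries, so its centred change of 1.14 (SE 0.17) is given as a value and its call is no support. ENAH, an actin elongation factor at adhesions, rose by 0.40 (limma adjusted p = 0.0353).

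ILK, the integrin-linked kinase, which forms a complex with LIMS1 and a parvin, had 12.3 and 15.3 TPM in the inputs and 22.4 and 23.7 TPM in Flag-RIP, and fell by 0.61 after centring (limma adjusted p = 0.0138). The parvin gene PARVB fell by 0.72 (limma adjusted p = 0.00249), and PARVA, named after its value was seen, by 0.47 (limma adjusted p = 0.019). The parvin gene PARVG had -0.17 and did not pass (limma adjusted p = 0.25). ACTN1, the alpha-actinin bound by PDZ-LIM proteins, fell by 0.53 (limma adjusted p = 0.0473). ACTN4 (-0.47, limma adjusted p = 0.0439) and ITGA5 (-0.45, limma adjusted p = 0.0277) were the other partners called lower and are named to complete the count. The call of ACTN4 was lost with quantile normalization, where its change was -0.32 (limma adjusted p = 0.125). The most abundant partner, filamin A (FLNA), had -0.33 and did not pass (limma adjusted p = 0.207).

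Without input replicate 1, no partner was called lower and none but RSU1 higher; the limma adjusted p-values were then 0.111 for ILK, 0.0601 for PARVB, 0.217 for PARVA, 0.144 for ACTN1 and 0.258 for ENAH. Leaving out input replicate 2 lost the calls of ILK (change -0.66), PARVA (-0.55), ACTN1 (-0.53), ACTN4 (-0.42), ITGA5 (-0.45) and ENAH (0.46). Fits that leave 1 library in a group are given from here by their changes only. ACTN1 was also lost without Flag-RIP replicate 1 (-0.49) or Flag-RIP replicate 2 (-0.58), as was ACTN4 (-0.39 and -0.54). ITGA5 was also lost without Flag-RIP replicate 1 (-0.37). With quantile normalization ACTN1 was lost too, at a change of -0.14 (limma adjusted p = 0.483). Scaled to the spike-ins, RSU1 had 0.51 and did not pass (limma adjusted p = 0.0604).

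**Figure D5:**
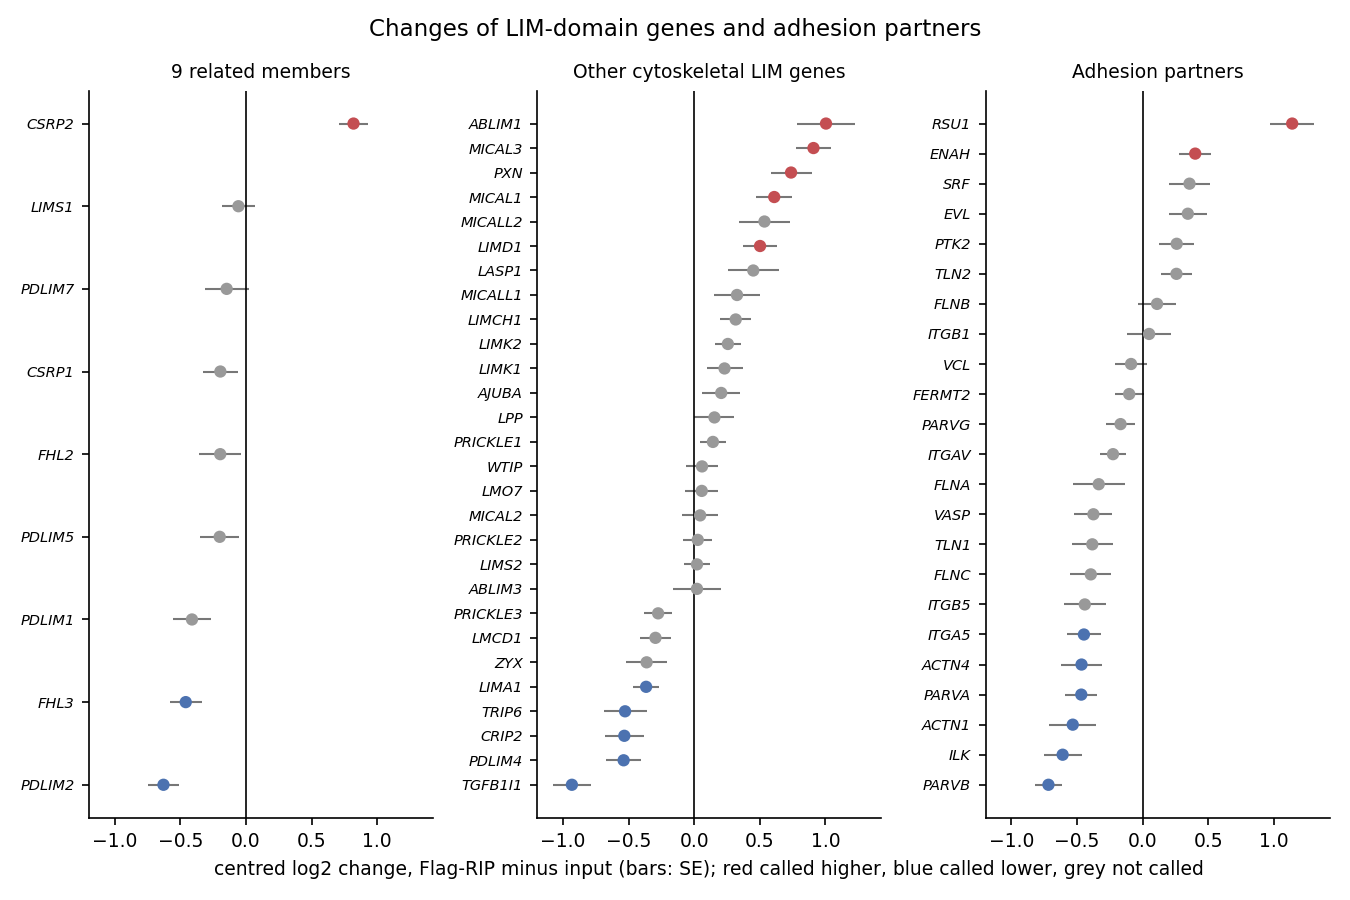
Centred log2 change, Flag-RIP minus input, with bars of 1 SE from the limma fit, for the 9 relatives of FHL1, the 28 tested cytoskeletal LIM-domain genes and the 23 tested adhesion partners. Red points were called higher, blue points lower and grey points did not pass; CSRP2 at 0.82 is the only red point among the relatives, and FHL1 at 5.19 is left out.

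In GRCh38.p14, FHL1 lies on chromosome X from 136146702 to 136211359, FHL2 on chromosome 2 from 105357712 to 105438529 and FHL3 on chromosome 1 from 37996770 to 38005514. CSRP2 lies on chromosome 12 from 76858709 to 76879019 and CSRP1 on chromosome 1 from 201483530 to 201507123. The 10 genes lie on 8 chromosomes, and their loci span from 8.7 kb for FHL3 to 216 kb for PDLIM5, with FHL1 at 64.7 kb. No other gene of the RefSeq table overlaps the FHL1 locus. FHL2 overlaps C2orf49, which had at most 2.45 TPM, and LIMS1 overlaps GCC2-AS1, which had at most 0.71 TPM. LIMS1 also overlaps LIMS1-AS1, and CSRP2 overlaps LOC124902971, for neither of which a value was used here.

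With 1 value per gene, the table does not show which stretch of a transcript was recovered. Transcript sequences were not used here. Of the 10 genes, 9 had a RefSeq window from 250 bases before to 50 bases after the gene start. Among all 27305 such windows, ACTAAC was found on either strand in 4.98% and ACTAAT in 5.86%. In the 50 transcribed bases, on the sense strand, the shares were 0.392% and 0.418%. None of the 9 windows held either sequence, which says only that these letters are not in these windows.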

How the data were processed

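RNA of 2 input and 2 Flag-RIP libraries from U2OS cells was compared. The authors deposited 1 table of TPM values, with 1 column per library. The submitters' processing notes name STAR, RSEM 1.2.31 and the GRCh38 build. For the annotation, the filters and the use of strand, nothing is given in the sources used here. Without strand, reads of overlapping genes on opposite strands cannot be told apart. TPM keeps no depth, so the precision of a value comes only from the replicates.

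The 92 ERCC spike-in rows count toward the TPM total but were not tested. Of 26830 genes, the 10415 with a mean of 1 TPM or more were fitted with limma 3.58.1 under R 4.3.3 (lmFit, eBayes with a trend) on log2(TPM + 1), two-sided, after the libraries had been brought to a common median. The Flag-RIP medians lay 1.32 log2 units above the input medians. Residual degrees of freedom were 2 and prior degrees of freedom 5.72. Benjamini-Hochberg adjustment ran over all tested genes, with a threshold of 0.05. All adjusted p-values are from these limma fits. On the centred log2 scale, replicate deviations had an SD of 0.137 in input and 0.254 in Flag-RIP. The fit uses 1 variance per gene for both groups. The script was tested on simulated data with equal spread in both groups, which cannot show what unequal spread does to the calls.

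The members and gene lists were chosen with earlier results of these data known. The named genes were the 10 members, QKI, the 5 genes nearest FHL1, and in each wider list the 3 largest changes past the threshold in each direction and the 2 highest mean TPM. The alternatives were no centring, pseudocounts of 0.1 and 5, no filter, a mean TPM of at least 5, rescaling without the 20 most abundant rows, scaling to the spike-ins, quantile normalization, robust variance fitting, a replicate block and each library left out. Positions and symbols are from the RefSeq table of GRCh38.p14, which matched 23987 symbols directly and 1395 as a synonym of 1 gene.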

Additional observations from a re-analysis of the deposited data

How the results depend on the processing

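FHL1, which was chosen for its high ratio in these libraries, was above 0 under every alternative run, from 3.88 to 6.51 on the log2 scale. CSRP2 was called higher under each alternative but the scaling to spike-ins. The counts of the main fit were 1703 genes higher and 2545 lower, of which the relatives of FHL1 gave 1 and 2, the other cytoskeletal LIM-domain genes 5 and 5 and the adhesion partners 2 and 6. As deposited, 9608 genes were higher and 33 lower, with 9 and 0 of the relatives, 27 and 0 of the LIM-domain genes and 22 and 0 of the partners. Scaled to the spike-ins the counts were 325 and 6339, with 0 and 7 relatives, 0 and 17 LIM-domain genes and 0 and 19 partners. Rescaled without the 20 most abundant rows they were 3748 and 730, with 1 and 0 relatives, 15 and 1 LIM-domain genes and 4 and 1 partners. With no filter, 26830 genes were tested, among them 39 LIM-domain genes and 28 partners. The counts were then 7737 and 11882, with 3 and 0 relatives, 21 and 5 LIM-domain genes and 12 and 3 partners. With a mean TPM of at least 5, where 3997 genes and 5 relatives were tested, they were 1025 and 1171, with 1 and 0 relatives. With a pseudocount of 0.1 the counts were 2009 and 2649, 4 relatives were lower, and 1 partner was higher and 12 lower. With a pseudocount of 5 the counts were 2354 and 3483, 4 relatives were lower, 13 LIM-domain genes were higher and 3 lower, and 8 partners were higher and 2 lower. With quantile normalization the counts were 1842 and 2136, and 1 partner was higher.

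Leaving out 1 library gave 332 to 2294 genes higher and 322 to 3184 lower. It gave 1 relative higher each time and 0 to 3 lower, 0 to 8 LIM-domain genes higher and 0 to 6 lower, and 1 to 5 partners higher and 0 to 7 lower. The lowest counts over all genes were without input replicate 1. Without input replicate 2 the counts were 747 and 987. The median change over all tested genes was -0.11 centred, 1.2 as deposited, 0.45 rescaled and -0.68 scaled to the spike-ins, so directions follow the scaling. With no filter the common median was taken over all 26830 genes. That moved the change of every gene of the main fit up by the same amount. FHL2 went from -0.20 to 0.58 and CSRP2 from 0.82 to 1.60. The cause of the other shifts was not tested.

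Changes that reversed as deposited were 1.12 for FHL2, 0.86 for FHL3, 0.91 for PDLIM1, 0.69 for PDLIM2, 1.12 for PDLIM5, 1.17 for PDLIM7, 1.26 for LIMS1, 1.12 for CSRP1, 0.38 for TGFB1I1, 0.78 for PDLIM4, 0.78 for CRIP2, 0.95 for ZYX, 0.60 for PARVB, 0.71 for ILK, 0.78 for ACTN1 and 0.98 for FLNA. With no filter they were 0.58 for FHL2, 0.32 for FHL3, 0.36 for PDLIM1, 0.15 for PDLIM2, 0.58 for PDLIM5, 0.63 for PDLIM7, 0.72 for LIMS1, 0.58 for CSRP1, 0.24 for PDLIM4, 0.24 for CRIP2, 0.41 for ZYX, 0.058 for PARVB, 0.17 for ILK, 0.24 for ACTN1 and 0.44 for FLNA. With a pseudocount of 5 they were 0.22 for FHL2, 0.37 for PDLIM7, 0.093 for LIMS1, 0.23 for CSRP1, 0.15 for ZYX, 0.081 for ACTN1 and 0.29 for FLNA, and with a pseudocount of 0.1 it was 0.17 for PDLIM5. Quantile normalization gave 0.0087 for PDLIM5, 0.029 for PDLIM7 and 0.42 for FLNA. Rescaling without the most abundant rows gave 0.28 for PDLIM1, 0.71 for PDLIM5 and 0.22 for LIMS1. The spike-in scaling gave -0.13 for CSRP2, -0.19 for ABLIM1, -0.14 for MICAL3, -0.48 for PXN, -0.89 for LASP1 and -0.58 for ENAH. With 1 library left out LIMS1 ran from -0.18 to 0.068, the latter without Flag-RIP replicate 2.

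Same-numbered libraries did not deviate together (r = -0.067 across genes, which are not independent replicates). With only 2 libraries per group, this value cannot decide whether same-numbered libraries came from the same lysate. With the replicate block 1720 genes were higher and 2457 lower, with 1 relative higher and 3 lower (PDLIM1 at a limma adjusted p of 0.0471), 6 LIM-domain genes higher and 5 lower, and 2 partners higher and 4 lower, where ACTN1 (limma adjusted p = 0.115) and ACTN4 (0.0823) were lost.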
